A study of Mus musculus with 30 samples.

Results

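Colon epithelium of mice lacking Smad4 was compared with colon epithelium of control mice by mRNA sequencing. The comparison took every library that the labels place in these groups, 3 knockout and 3 control libraries of the 30 samples of the series, and all 11608 genes listed for them. The knockout mice carry the name Smad4ΔLrig1, the controls the name Smad4+, and the strain is given as C57BL/6J for both. The name ties the deletion to Lrig1, a gene of intestinal stem cells whose product restrains the EGF receptor. The allele that drives the deletion, its timing, the alleles the controls carry, the age and sex of the mice, and any pooling of animals are not given in the labels used here. The series concerns Smad4, the chemokine Ccl20 and cancer that follows inflammation of the colon. Its other samples are colonocytes in culture and colonoids, which are epithelial organoids, given TNF or the Smad4 ligands TGFB1 and BMP2. Of these, only the colonoids given vehicle or TGFB1 (3 ng/mL) with BMP2 (10 ng/mL) are used here, in the last comparison.

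SMAD4 is the partner that all receptor-activated SMAD proteins share. TGFB and activin ligands lead to phosphorylation of SMAD2 and SMAD3, and BMP ligands to that of SMAD1, SMAD5 and SMAD9, and each kind enters the nucleus bound to SMAD4. In the colon, BMP signalling is strongest towards the lumen, where cells differentiate, and is held low by secreted antagonists at the crypt base, where stem cells divide. Among the best known targets of BMP signalling are the Id genes, whose products block basic helix-loop-helix transcription factors, and the inhibitory SMADs, which close a feedback loop.

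The targeted gene was checked first. Smad4 stood at 132, 148 and 152 CPM in the 3 controls and 47.8, 59.2 and 46.1 CPM in the 3 knockouts, with every knockout library below every control, and fell by 1.49 (log2; SE 0.12, limma adjusted p = 7.01e-05). Lrig1 stood at 83.0, 87.1 and 84.9 CPM in the 3 controls and 105, 92.3 and 77.9 CPM in the 3 knockouts, and the groups overlapped (log2 difference 0.10, limma adjusted p = 0.535). Ccl20 stood at 1.25, 1.37 and 1.77 CPM in the 3 controls and 2.85, 7.03 and 4.04 CPM in the 3 knockouts, 1.13 higher on the log2 scale (limma adjusted p = 0.00559) with no overlap. Levels are in CPM, reads scaled to a common library size, and changes are differences of log2(CPM + 1), so that a positive value means higher in the knockout. Because the RNA was sequenced in bulk, fewer cells of a type and less RNA per cell cannot be told apart in any of the values.

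Across 11607 genes with a mean of at least 1 CPM, limma with Benjamini-Hochberg adjustment called 4611 (39.7%) at an adjusted p below 0.05, with 2300 (19.8%) higher and 2311 (19.9%) lower in the knockout. These percentages are the background for the counts of this fit below. The number of calls was 2721 without control library 2 and 2708 without knockout library 2, so examples were taken from the 2469 genes (1113 higher, 1356 lower) called in the same direction in every fit that tested them. There were 13 such fits, which change the pseudocount, filter or scaling or leave out a library, and 284 of these genes, with a mean under 5 CPM, were tested in 12 of them. Among called genes, 245 rose and 426 fell by at least 2-fold in the ratio of mean CPM, taken without a pseudocount. Implied depth was 23.2 to 28.6 M reads over the listed genes per library. The first principal component held 68.6% of the variance and separated the groups. The series description calls the libraries biological replicates without saying what separates them. The p-values thus set the group difference against the spread between these libraries only.

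Direction varied with the length and base composition of the transcript, over the 10847 genes (93.5% of those tested) with an annotated transcript length and GC content. With genes ranked by transcript length into 5 nearly equal bins, in the shortest bin 10.8% of genes were higher and 37.5% lower in the knockout, against 36.5% and 6.69% in the longest bin. In the bin with the lowest GC content, of 5 made the same way, 38.0% were higher and 3.69% lower, against 3.69% and 40.3% in the bin with the highest. Relative to the mean of all 6 libraries, genes of the lowest GC bin had a median deviation of -0.183, -0.173 and -0.0498 (log2) in control libraries 1, 2 and 3 and of -0.0298, 0.225 and 0.226 in knockout libraries 1, 2 and 3. Control library 3 and knockout library 1 thus lay between the other controls and the other knockouts. Whether RNA quality or library preparation plays a part was not tested. For this reason the count of each list is also given with the length and GC trends removed from each library. That fit called 1910 genes higher and 1822 lower of 10847, which is the background for those counts. Of the genes called in every fit, 2311 have a length and GC value, and 1894 (82.0%) kept the same call with the trends removed.

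**Figure D1:**
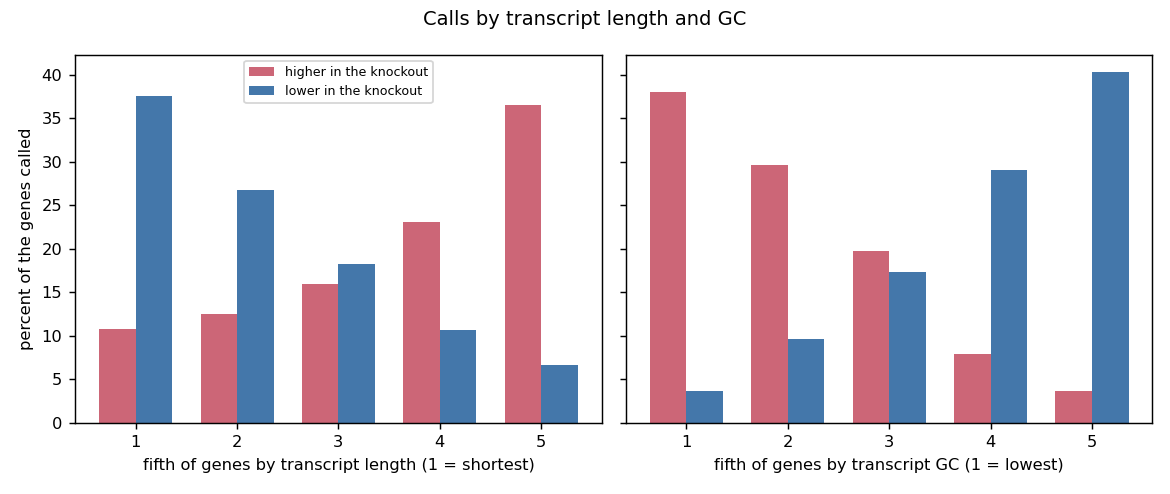
Percent of genes called higher (red) and lower (blue) in the knockout by limma, in 5 nearly equal bins of genes by transcript length (left) and transcript GC content (right). Higher calls climb from 10.8% to 36.5% with length, and lower calls climb from 3.69% to 40.3% with GC content.

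The tissue label was checked against markers. All 12 epithelial markers were tested, and their summed level ran from 15394 to 16563 CPM in the controls and from 11313 to 13960 CPM in the knockout. Of them 6 fell and 1 rose (4 and 2 with the trends removed), with a median log2 change of -0.42 (-0.09 with the trends removed). Krt19, 1 of the 12, was not called but was far lower in knockout library 1, the library with the lowest sum, than in any other. Its values are given in the last paragraph. Epcam stood at 1939, 1972 and 2018 CPM in the 3 controls and 2014, 2106 and 2281 CPM in the 3 knockouts, and it did not pass the test (limma adjusted p = 0.447; with the trends removed it did, at 0.44 higher and adjusted p = 0.0167). Markers of other cells were low. The 10 leukocyte markers summed to 100 to 121 CPM in the controls and 93.9 to 115 CPM in the knockout, and 1 of them, Coro1a, fell, a call that was lost with the trends removed (adjusted p = 0.133). The 13 listed T and NK cell markers summed to 129 to 211 and 134 to 172 CPM, with 5 lower (4 with the trends removed). Igj was the only B and plasma cell marker listed, and it rose, from 5.16, 11.7 and 14.6 to 26.4, 21.4 and 25.7 CPM; it has no length and GC value. Of 7 listed myeloid markers 1 rose (Mrc1), and 2 did with the trends removed. Only 3 of 18 fibroblast and muscle markers were listed (25.8 to 28.1 CPM in controls, 18.1 to 21.6 CPM in the knockout; 1 fell, 0 with the trends removed), and Col1a1, Dcn, Acta2 and Myh11 were not among them. The endothelial markers Pecam1 and Cdh5 were not listed either, and of 2 endothelial markers that were, 1 rose, also with the trends removed. Of mast cell, neuronal and squamous markers 2, 1 and 1 were listed, with 0 called in either fit, and 0 of 7 erythrocyte markers were listed. Xist stood at 0.831, 416 and 441 CPM in the 3 controls and 943, 1120.0 and 0.693 CPM in the 3 knockouts, so that 1 library of each group was near 0.

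Most BMP target genes were lower without Smad4, and Id3 had the largest fall of the genes ranked below. Of 11 tested members 7 fell and 1 rose, with a median log2 change of -0.84 beside 0.00 over all genes; with the trends removed 8 fell and 0 rose (median -0.72). Id3 stood at 107, 133 and 117 CPM in the 3 controls and 3.14, 3.92 and 2.86 CPM in the 3 knockouts and fell by 4.81 (SE 0.14, limma adjusted p = 7.88e-08). Its 3 knockout libraries lay within a narrow range far below the controls. Id1 stood at 206, 238 and 224 CPM in the 3 controls and 45.96, 53.8 and 47.9 CPM in the 3 knockouts and fell by 2.15 (SE 0.10, limma adjusted p = 2.7e-06), again without overlap. Id1 lies at chromosome 2, 152736251 to 152737410 on the plus strand of mm10. Id2 stood at 22.7, 25.5 and 28.1 CPM in the 3 controls and 6.91, 9.49 and 7.02 CPM in the 3 knockouts, a fall of 1.59 (limma adjusted p = 0.000148). The inhibitory SMAD gene Smad6 stood at 20.7, 21.2 and 18.9 CPM in the 3 controls and 6.03, 5.09 and 7.42 CPM in the 3 knockouts and fell by 1.58 (limma adjusted p = 0.000142). Again the groups were apart. The related Smad7 stood at 34.0, 36.1 and 31.4 CPM in the 3 controls and 16.9, 20.2 and 18.4 CPM in the 3 knockouts, a fall of 0.84 (limma adjusted p = 0.000766). Smaller levels fell as well. Atoh8, a basic helix-loop-helix factor, stood at 2.42, 4.21 and 3.85 CPM in the 3 controls and 1.17, 1.41 and 0.816 CPM in the 3 knockouts. Zfp503, a zinc finger gene, stood at 13.1, 13.0 and 12.9 CPM in the 3 controls and 8.09, 7.59 and 8.20 CPM in the 3 knockouts. Among the Id genes 1 went the other way. Id4 stood at 4.99, 3.4 and 3.43 CPM in the 3 controls and 7.71, 6.54 and 8.12 CPM in the 3 knockouts, a rise of 0.79 (limma adjusted p = 0.00508) that did not pass with the trends removed (adjusted p = 0.0749). Tob1 and Hes1 were not called, with 158 and 189.7 CPM for Tob1 and 85.6 and 90.7 CPM for Hes1 as group means.

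**Figure D2:**
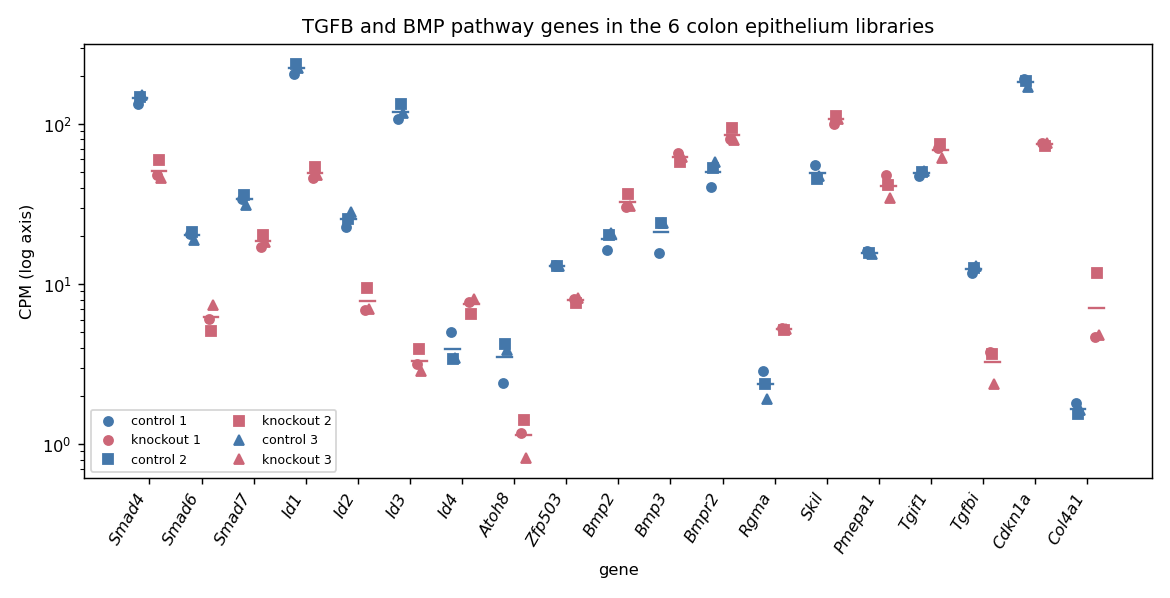
CPM on a log axis of TGFB and BMP pathway genes in each control (blue) and knockout (red) library, with a line at each group mean (n = 3). Id3 separates the groups the most, from 107 CPM or more in the controls to 3.92 CPM or less in the knockout, and Bmp3 and Skil lie higher in every knockout library.

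Promoter sequence was read for the members to show where letters bound by BMP SMADs could lie. The search used GGCGCC, a GC-rich SMAD motif, GTCTAGAC, the palindrome of the SMAD binding element, and CAGAC, a shorter core that shares the letters AGAC with that palindrome, on both strands of the 250 bases before the start in RefSeq promoters of GRCm38.p6. Of 7 list members found in the table, 2 held GGCGCC (28.6%, against 9.59% of 32851 promoters), 0 held GTCTAGAC (0.167% of all), and 2 held CAGAC (28.6%, against 42.2%). Such a match is a description of letters, not a site. Sequences are shown for Id2 and Smad6, which fell, and Id4, which rose, with GGCGCC in capitals, leaving out bases that lie in an annotated exon. They are printed 5′ to 3′ on the gene's strand. The stretch of Id2 lies at chr12:25096254-25096342 (minus strand), that of Id4 at chr13:48260866-48261115 (plus strand) and that of Smad6 at chr9:64022060-64022309 (minus strand). The Id2 stretch lies inside the span annotated for Id2, 25093799 to 25097140, so it is not upstream of the whole gene. The other stretches lie before the annotated genes.
Id2: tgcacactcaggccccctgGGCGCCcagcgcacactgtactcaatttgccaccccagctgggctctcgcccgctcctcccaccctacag
Id4: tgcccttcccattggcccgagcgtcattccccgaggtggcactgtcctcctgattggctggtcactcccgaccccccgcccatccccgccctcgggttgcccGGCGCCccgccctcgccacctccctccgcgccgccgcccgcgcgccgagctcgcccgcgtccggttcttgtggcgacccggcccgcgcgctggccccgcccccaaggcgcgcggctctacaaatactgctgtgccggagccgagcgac
Smad6: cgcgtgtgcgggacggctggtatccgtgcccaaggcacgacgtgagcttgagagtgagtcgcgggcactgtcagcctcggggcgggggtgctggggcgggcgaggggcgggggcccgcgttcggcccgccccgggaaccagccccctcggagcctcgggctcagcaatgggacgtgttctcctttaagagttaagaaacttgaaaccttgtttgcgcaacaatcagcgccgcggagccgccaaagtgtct
GGCGCC begins at position -231 from the start in Id2 and at -148 in Id4, and Smad6 has none in this window. The motif is thus found inside the span of 1 gene that fell and before 1 that rose.

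Ligands, receptors and feedback genes of the pathway were more often higher than lower in the knockout. Of 8 tested ligands and antagonists 3 rose and 1 fell (4 and 2 with both trends removed). Bmp3, a family member that restrains signalling by other BMPs, stood at 15.5, 23.9 and 24.2 CPM in the 3 controls and 66.0, 57.8 and 62.3 CPM in the 3 knockouts and rose by 1.53 (limma adjusted p = 0.00023). The ligand Bmp2 stood at 16.3, 20.2 and 20.8 CPM in the 3 controls and 30.4, 36.3 and 30.6 CPM in the 3 knockouts, a rise of 0.74 (limma adjusted p = 0.00241). Both were above every control. Of 11 receptors 4 rose and 0 fell (4 and 1 with both trends removed), among them the BMP co-receptor Rgma, at 2.87, 2.37 and 1.92 CPM in the 3 controls and 5.32, 5.17 and 5.26 CPM in the 3 knockouts. The type II receptor Bmpr2 stood at 40.1, 52.8 and 57.6 CPM in the 3 controls and 81.0, 94.9 and 79.2 CPM in the 3 knockouts, but its rise did not pass with the trends removed (adjusted p = 0.134). Of 6 SMAD transducers and inhibitors 2, Smad6 and Smad7, fell and 0 rose (2 and 1 with both trends removed). Of 14 feedback and corepressor genes 9 rose and 2 fell (4 and 2 with both trends removed). Skil, a corepressor of SMAD targets that TGFB itself induces, stood at 55.2, 45.5 and 47.1 CPM in the 3 controls and 99.9, 112 and 107 CPM in the 3 knockouts. Pmepa1, an inhibitor of the pathway, stood at 16.0, 15.7 and 15.4 CPM in the 3 controls and 47.8, 41.3 and 34.3 CPM in the 3 knockouts. Both rose, as did Tgif1, another corepressor (49.5 ± 2.17 to 68.7 ± 7.00 CPM, mean ± SD, n = 3). Zfyve9, which presents SMADs to the receptor, fell (16.0 ± 0.401 to 10.3 ± 0.912 CPM). TGFB targets split, with 6 of 16 higher and 5 lower (5 and 5 of 15 with both trends removed). The cell cycle inhibitor Cdkn1a stood at 191, 185 and 171 CPM in the 3 controls and 76.3, 73.2 and 75.8 CPM in the 3 knockouts. The matrix protein gene Tgfbi stood at 11.7, 12.7 and 13.0 CPM in the 3 controls and 3.77, 3.67 and 2.37 CPM in the 3 knockouts. Both fell. Col4a1, a basement membrane collagen, rose from 1.66 ± 0.128 to 7.07 ± 4.02 CPM.

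The EGF receptor ligands Areg, Ereg and Hbegf rose, while stem cell genes of the crypt moved both ways. Of 20 genes of Lrig1 and the EGF receptor family 8 rose and 1 fell (7 and 3 with both trends removed). The ligand Areg stood at 7.65, 6.02 and 5.92 CPM in the 3 controls and 19.1, 19.2 and 17.1 CPM in the 3 knockouts and rose by 1.38 (limma adjusted p = 0.000189). Its neighbour Ereg, another ligand, stood at 1.25, 0.702 and 1.018 CPM in the 3 controls and 3.85, 3.51 and 5.55 CPM in the 3 knockouts, a rise of 1.41 (limma adjusted p = 0.000582). Areg and Ereg lie near each other on chromosome 5 (91139599 to 91148432 and 91074622 to 91093646). Hbegf, another ligand, rose as well (12.9 ± 0.798 to 19.3 ± 1.38 CPM), with Dusp6 (34.9 ± 4.33 to 64.8 ± 8.14 CPM) and Spry4 (2.65 ± 0.325 to 6.01 ± 1.66 CPM), feedback inhibitors that MAP kinase signalling induces. The receptor Erbb2 fell (187 ± 16.9 to 115 ± 14.3 CPM).

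Of 19 crypt stem cell genes 8 rose and 6 fell (5 and 5 with both trends removed). Lgr5, the receptor that marks crypt base stem cells, stood at 6.51, 7.69 and 8.37 CPM in the 3 controls and 22.5, 22.05 and 13.6 CPM in the 3 knockouts and rose by 1.23 (limma adjusted p = 0.00115). Ascl2, a transcription factor of the same cells, stood at 7.86, 10.9 and 10.2 CPM in the 3 controls and 2.60, 2.38 and 1.14 CPM in the 3 knockouts and fell by 1.83 (limma adjusted p = 0.000329). These 2 genes of the same cells therefore moved in opposite directions, each without overlap of the groups. Smoc2, a secreted matrix protein of the crypt base, rose (37.4 ± 1.70 to 80.1 ± 5.33 CPM), and so did the water channel Aqp4 (688 ± 38.2 to 1097 ± 170.0 CPM). Axin2, a feedback inhibitor that Wnt signalling induces, fell (48.1 ± 6.94 to 21.5 ± 4.73 CPM), with the receptors Tnfrsf19 (4.87 ± 0.762 to 2.31 ± 0.135 CPM) and Ephb3 (38.7 ± 1.80 to 22.5 ± 6.25 CPM). Of 16 Wnt pathway genes 4 rose and 2 fell (4 and 2 with both trends removed). The Wnt effector Tcf7l2 rose (66.4 ± 8.03 to 100.9 ± 9.28 CPM) and its relative Tcf7 fell (6.66 ± 0.356 to 4.16 ± 0.371 CPM), while beta-catenin, Ctnnb1, was not called (913 ± 9.73 to 924 ± 79.6 CPM). In the Notch pathway 3 of 18 genes rose and 3 fell (2 and 3 with both trends removed), with the ligand Jag2 (2.157 ± 0.477 to 0.769 ± 0.321 CPM) and the modifier Lfng (16.4 ± 2.70 to 9.14 ± 1.26 CPM) lower and the protease Adam10 higher (199 ± 15.1 to 302 ± 31.2 CPM).

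Goblet, crypt base secretory and enteroendocrine cell genes were more often lower than higher. Of 18 goblet cell mucus proteins 9 fell and 5 rose (median log2 change -0.52; 8 fell and 3 rose with both trends removed, median -0.41). Zg16, a lectin of the mucus layer, stood at 1618, 2388 and 2360.3 CPM in the 3 controls and 571, 471 and 581 CPM in the 3 knockouts. It fell by 1.95 (limma adjusted p = 8.61e-05). Itln1, an intelectin that binds microbial sugars, stood at 17.7, 7.10 and 6.49 CPM in the 3 controls and 1.97, 2.06 and 2.32 CPM in the 3 knockouts, with 10.4 and 2.12 CPM as means. The mucus proteins Tff3 and Fcgbp fell, with log2 changes of -1.39 and -1.27. Muc2, the gel-forming mucin, was not called (7026 ± 739 to 6276 ± 1241 CPM), and the membrane mucin Muc4 rose (158 ± 24.4 to 307 ± 86.0 CPM). Of 10 crypt base secretory cell genes 4 fell and 0 rose (4 and 0 with both trends removed). Mptx1, a mucosal pentraxin, stood at 838, 463 and 478 CPM in the 3 controls and 14.7, 38.2 and 19.8 CPM in the 3 knockouts and fell by 4.61 (limma adjusted p = 3.21e-05), with the second largest fall among the genes ranked below.

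Of 17 enteroendocrine hormone and granule genes 12 fell and 1 rose (median -0.58; 9 and 1 with both trends removed, median -0.43). Sct, which encodes secretin, stood at 22.5, 16.9 and 14.3 CPM in the 3 controls and 0.964, 1.05 and 1.47 CPM in the 3 knockouts. Nts, which encodes neurotensin, stood at 11.8, 8.46 and 9.69 CPM in the 3 controls and 2.22, 1.57 and 1.67 CPM in the 3 knockouts. Insl5, a peptide of colonic endocrine cells, stood at 31.0, 32.3 and 31.5 CPM in the 3 controls and 13.3, 15.8 and 11.6 CPM in the 3 knockouts. In each of these genes the groups did not overlap. Gcg, the proglucagon gene, fell, and so did Pcsk1, a prohormone convertase (log2 change -0.82), while Pyy was not called (35.2 ± 12.0 to 25.7 ± 1.51 CPM). Neurog3, the factor that specifies endocrine cells, fell (2.35 ± 0.121 to 0.891 ± 0.208 CPM), as did the secretory factor Foxa3 (59.6 ± 9.66 to 36.6 ± 4.498 CPM); over 18 secretory lineage factors 6 fell and 2 rose (3 and 4 with both trends removed). Of 12 tuft cell genes 6 fell and 0 rose, but 2 fell with both trends removed. Enzymes listed for O-linked glycans, a list that also holds glycolipid enzymes, went both ways, with 9 of 37 higher and 6 lower (11 and 6 with both trends removed). C1galt1, which makes the core of many mucin glycans, rose from 96.9 ± 17.3 to 201 ± 20.95 CPM and B3gnt5, which extends glycolipids, from 65.5 ± 6.47 to 227 ± 55.1 CPM, while Gal3st1, which makes sulfated lipids, fell (52.9 ± 5.81 to 25.9 ± 4.52 CPM).

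Absorptive colonocyte and metabolic genes were more often lower than higher. Of 42 absorptive colonocyte genes 19 fell and 3 rose (median -0.45; 20 fell and 5 rose with both trends removed). Mal, which sorts proteins to the apical membrane, stood at 222, 177 and 188 CPM in the 3 controls and 7.00, 10.7 and 5.79 CPM in the 3 knockouts and fell by 4.51 (limma adjusted p = 1.56e-06). The bile acid transporter subunit Slc51a stood at 64.6, 72.0 and 67.3 CPM in the 3 controls and 18.1, 13.0 and 26.3 CPM in the 3 knockouts. Guca2a, the precursor of guanylin, stood at 699.9, 815 and 769.8 CPM in the 3 controls and 201, 159 and 331 CPM in the 3 knockouts. Both fell without overlap. Atp12a, a proton and potassium pump, went the other way (62.5, 68.8 and 69.2 CPM in the 3 controls and 197, 276 and 259 CPM in the 3 knockouts). Lypd8, a protein that keeps bacteria from the surface, and Krt20 were not called (5908 ± 418 to 6210.1 ± 318 CPM and 983 ± 123 to 895 ± 184 CPM). Of 30 ion channels and pumps 12 fell and 4 rose (11 and 2 of 29 with both trends removed). The kinase Sgk1, which acts downstream of aldosterone, stood at 55.9, 108 and 109 CPM in the 3 controls and 28.7, 18.9 and 22.03 CPM in the 3 knockouts. The water channel Aqp1 stood at 104, 148 and 137 CPM in the 3 controls and 41.2, 33.1 and 52.4 CPM in the 3 knockouts. Both fell, and all knockout values lay below all controls. Of 36 amino acid, sugar and metal transporter genes 10 fell and 4 rose (9 and 10 with both trends removed). The cystine transporter Slc7a11 rose (2.20 ± 1.145 to 12.7 ± 2.30 CPM), as did the iron exporter Slc40a1 (124 ± 46.5 to 246 ± 30.8 CPM), while the metallothionein Mt2 fell (118 ± 6.45 to 43.7 ± 12.4 CPM).

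Of 59 genes of xenobiotic and steroid metabolism 36 fell and 3 rose (median -0.55; 35 and 3 with both trends removed, median -0.59). The sulfotransferase Sult1a1 stood at 543, 699 and 738 CPM in the 3 controls and 53.8, 65.4 and 76.9 CPM in the 3 knockouts and fell by 3.32 (limma adjusted p = 2.33e-06). The cytochrome Cyp4b1 fell (4.76 ± 1.13 to 0.177 ± 0.164 CPM), with the glucuronosyltransferase Ugt2b5 (59.6 ± 15.3 to 13.9 ± 7.95 CPM) and the flavin monooxygenase Fmo5 (46.5 ± 1.94 to 15.6 ± 5.08 CPM). Gsta3, a glutathione transferase, rose (14.1 ± 0.658 to 48.3 ± 7.04 CPM). Of 42 genes of fatty acid oxidation and ketogenesis 24 fell and 0 rose (median -0.44; 27 and 1 with both trends removed, median -0.52). Pdk4, a kinase that turns off pyruvate oxidation, fell (6.45 ± 3.22 to 1.00 ± 0.186 CPM), as did the thiolase Acaa2 (242 ± 43.1 to 88.5 ± 14.1 CPM) and the fatty acid transporter Slc27a4 (123 ± 5.44 to 49.3 ± 7.28 CPM). Cpt1a, which admits fatty acids to mitochondria, was not called (398 ± 46.9 to 324 ± 23.2 CPM). Of 36 cholesterol and fatty acid synthesis genes 11 rose and 3 fell (12 and 0 with both trends removed), with the malic enzyme Me1 (20.1 ± 2.22 to 43.6 ± 4.67 CPM) and the desaturases Fads1 (75.7 ± 13.4 to 149.9 ± 28.8 CPM) and Scd1 (74.3 ± 10.1 to 143 ± 22.2 CPM) higher.

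Oxidative phosphorylation and ribosomal protein genes, which are short transcripts, were lower in most members. Of 50 oxidative phosphorylation genes 41 fell and 0 rose (median -0.68), and 41 fell with both trends removed (median -0.50). Cox7c, a subunit of cytochrome oxidase, stood at 81.2, 92.1 and 86.3 CPM in the 3 controls and 28.4, 22.4 and 28.4 CPM in the 3 knockouts. Ndufb8, of complex I, stood at 238, 287 and 253 CPM in the 3 controls and 94.8, 76.0 and 104 CPM in the 3 knockouts. In neither gene did the groups overlap. Cytochrome c, Cycs, was not called (733 ± 50.4 to 752 ± 152 CPM), though with both trends removed it passed as lower (log2 difference -0.29, limma adjusted p = 0.0377). Of 43 cytosolic ribosomal protein genes 37 fell and 0 rose (median -0.63), and 31 fell with both trends removed (median -0.41). Rps19 stood at 446, 515 and 487 CPM in the 3 controls and 176, 173 and 228 CPM in the 3 knockouts. Many ribosomal protein genes have near-identical processed copies elsewhere in the genome, so their levels are uncertain. Median transcript length was 717 bases in the oxidative phosphorylation list and 802 bases in the ribosomal list. Of 19 retinoid genes 7 fell and 3 rose (4 and 3 of 18 with both trends removed). Dhrs9, a retinol dehydrogenase, stood at 5.30, 4.10 and 4.601 CPM in the 3 controls and 23.8, 26.1 and 33.8 CPM in the 3 knockouts and rose by 2.34 (limma adjusted p = 3.21e-05), and Lrat, which stores retinol as esters, fell (9.68 ± 2.43 to 3.67 ± 0.947 CPM).

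Complement and antimicrobial genes were more often higher than lower. Of 8 complement and acute phase genes 6 rose and 0 fell, also with both trends removed (6 and 0, median 0.65). Lrg1, a secreted glycoprotein of inflammation, stood at 7.20, 8.57 and 7.35 CPM in the 3 controls and 90.8, 79.2 and 44.4 CPM in the 3 knockouts and rose by 3.00 (limma adjusted p = 5.87e-05). C3, the central complement component, rose too (35.97 ± 1.05 to 97.4 ± 27.6 CPM). Of 30 antimicrobial and barrier genes 14 rose and 5 fell (13 and 4 with both trends removed). The iron binding protein Ltf stood at 3.15, 2.44 and 2.19 CPM in the 3 controls and 12.1, 14.98 and 8.32 CPM in the 3 knockouts. The protease inhibitor Slpi stood at 11.2, 8.39 and 8.75 CPM in the 3 controls and 35.4, 32.1 and 32.3 CPM in the 3 knockouts. Both rose without overlap. The C-type lectin Reg3g rose (1126 ± 353 to 3278 ± 762 CPM), with its nearby paralog Reg3b (2476 ± 94.2 to 6871 ± 1860.1 CPM). Whether reads are shared between Reg3g and Reg3b was not tested. The siderophore binder Lcn2 rose as well (4.00 ± 0.223 to 12.0 ± 5.89 CPM), and Pigr, which carries IgA across the epithelium, was not called (7800.1 ± 539 to 7883 ± 623 CPM).

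Of 11 chemokines 4 rose and 1 fell (3 and 1 with both trends removed), with the neutrophil attractant Cxcl5 higher (0.145 ± 0.0622 to 3.10 ± 2.21 CPM) and Ccl25 lower (8.22 ± 2.69 to 2.36 ± 0.203 CPM). Of 29 epithelial cytokines and receptors 10 rose and 5 fell (10 and 3 with both trends removed), among the rises Il18 (64.6 ± 12.0 to 134 ± 25.3 CPM), an inflammasome product, and Il1rn (48.6 ± 4.39 to 112 ± 21.4 CPM), the interleukin 1 receptor antagonist. NF-kB and TNF signalling genes gave 9 higher and 5 lower of 41 (14 and 6 with both trends removed), and the signalling inhibitor Tnfaip3 rose (43.3 ± 5.95 to 68.5 ± 8.58 CPM). Of 53 interferon-stimulated genes 25 rose and 5 fell (median 0.46), and 15 and 4 did with both trends removed (median 0.34). In every fit that tested them 10 rose and 2 fell, beside 1113 higher and 1356 lower among all 11607 genes. The summed level of the list was 2659, 3251 and 3309 CPM in the 3 controls and 4647, 4356 and 3325 CPM in the 3 knockouts, so that knockout library 3 lay beside control library 3 and the other knockouts lay higher. Ifit2, an antiviral protein, stood at 11.9, 13.2 and 13.5 CPM in the 3 controls and 61.4, 54.8 and 43.3 CPM in the 3 knockouts and rose by 1.96 (limma adjusted p = 4.47e-05). Of 25 class I antigen processing genes 4 rose and 7 fell (median -0.18), but 5 rose and 4 fell with both trends removed (median 0.16), so that the balance turned. Beta-2 microglobulin, B2m, rose (1623 ± 204 to 2952 ± 489.5 CPM) and the immunoproteasome subunit Psmb10 fell (235 ± 25.7 to 147 ± 21.2 CPM). The stress ligand H60c, which binds the receptor NKG2D, rose (1.23 ± 0.274 to 10.0 ± 2.11 CPM).

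Genes of regenerating epithelium were more often higher than lower. Of 20 regenerative and fetal-like genes 11 rose and 1 fell (median 0.77; 12 and 0 of 19 with both trends removed, median 0.88). Ly6c1 stood at 5.96, 5.99 and 5.62 CPM in the 3 controls and 25.9, 22.2 and 25.2 CPM in the 3 knockouts and rose by 1.89 (limma adjusted p = 2.9e-05). Anxa1, an annexin, stood at 85.2, 109 and 118 CPM in the 3 controls and 159, 199.7 and 252 CPM in the 3 knockouts. In neither gene did the groups overlap. Anxa8 rose too (10.5 ± 0.651 to 25.6 ± 1.70 CPM), with F3, tissue factor (14.8 ± 1.79 to 30.9 ± 1.69 CPM), and Ly6a (357 ± 24.6 to 663 ± 41.4 CPM), of which Ly6a and Ly6c1 are paralogs. Of 29 junction, desmosome and integrin genes 13 rose and 4 fell (12 and 3 with both trends removed). Lama3, a laminin chain, stood at 2.56, 2.18 and 2.30 CPM in the 3 controls and 8.38, 7.03 and 13.0 CPM in the 3 knockouts and rose. Itga2, a collagen receptor subunit, rose as well (37.3 ± 3.22 to 76.8 ± 2.81 CPM). Among claudins and tight junction genes 4 of 17 rose and 3 fell (6 and 3 of 16 with both trends removed), with Cldn8 higher (63.5 ± 6.47 to 137 ± 22.5 CPM) and Cldn3 lower (472 ± 47.7 to 264 ± 51.5 CPM). The ephrin receptor Epha2 fell (15.1 ± 1.90 to 7.06 ± 1.76 CPM), as did the serine protease Prss23 (15.3 ± 4.23 to 2.42 ± 0.219 CPM).

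Positional identity genes changed in part. Of 34 region and homeobox genes 10 rose and 6 fell (13 and 3 with both trends removed). Hoxd13, a homeobox gene of the hindgut end, stood at 5.19, 6.80 and 8.07 CPM in the 3 controls and 40.4, 58.8 and 26.1 CPM in the 3 knockouts and rose by 2.42 (limma adjusted p = 0.000227). Hoxd11, from the same cluster on chromosome 2, stood at 0.312, 0.407 and 0.415 CPM in the 3 controls and 4.36, 6.02 and 2.28 CPM in the 3 knockouts, a rise of 1.85 (limma adjusted p = 0.000573). All knockout libraries lay above all controls. The gut homeobox gene Cdx2 fell (436 ± 18.4 to 277 ± 21.6 CPM), with Tbx3 (29.4 ± 0.954 to 12.3 ± 0.664 CPM), while Hnf4a was not called (900.4 ± 55.5 to 905 ± 48.2 CPM). The 7 listed small intestine and Paneth cell markers summed to 165 to 244 CPM in the controls and 143 to 171 CPM in the knockout. Of them 4 fell and 2 rose (4 and 0 with the trends removed). The aminopeptidase Enpep (19.5 ± 7.29 to 2.09 ± 0.665 CPM), the bile acid binder Fabp6 (57.4 ± 24.4 to 17.1 ± 3.96 CPM) and the bile acid transporter Slc10a2 (11.9 ± 1.45 to 3.43 ± 1.48 CPM) fell in every 1 of the 13 fits named above that tested them. Whether the stretch of colon sampled differs between the groups was not tested.

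Counting both directions, cell cycle genes were called no more often than all genes, also with both trends removed. Of 50 replication and mitosis genes 12 rose and 6 fell (6 and 4 with both trends removed). The cyclin Ccnd2 rose (205 ± 32.5 to 330.1 ± 24.9 CPM), Cdc20 fell (63.9 ± 8.69 to 42.9 ± 5.17 CPM), and Pcna was not called (139 ± 24.2 to 157 ± 16.3 CPM). Of 23 cell cycle inhibitors and p53 targets 7 fell and 2 rose, 3 and 0 with both trends removed. Among AP-1 and immediate early genes 5 of 25 rose and 5 fell (8 and 5 with both trends removed), with Egr1 higher (9.13 ± 0.645 to 19.4 ± 1.99 CPM) and Junb lower (82.8 ± 11.8 to 38.9 ± 4.09 CPM). The clock genes Per2 (12.2 ± 2.09 to 26.9 ± 2.37 CPM) and Bhlhe40 (100.7 ± 5.97 to 179 ± 17.4 CPM) rose among 17 clock genes, of which 3 rose and 1 fell (2 and 0 with both trends removed), and the hour of tissue collection is not given in those labels. Of 36 unfolded protein response genes 14 rose and 5 fell (12 and 1 of 35 with both trends removed), and of 31 proteasome genes 11 fell and 3 rose (12 and 3 with both trends removed). Class II antigen presentation gave 0 higher and 1 lower of 10 (0 and 0 of 9 with both trends removed) and keratins 0 and 1 of 8 (0 and 0). Eph receptors and ephrins gave 3 higher and 4 lower of 11, also with both trends removed. Matrix proteases and inhibitors gave 5 higher and 6 lower of 21, a balance that turned with both trends removed (6 and 2). Hedgehog and hippo genes gave 3 higher and 3 lower of 12 (3 and 2 with both trends removed), and stress ligands of NKG2D gave 3 and 2 of 12 (3 and 3).

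**Figure D3:**
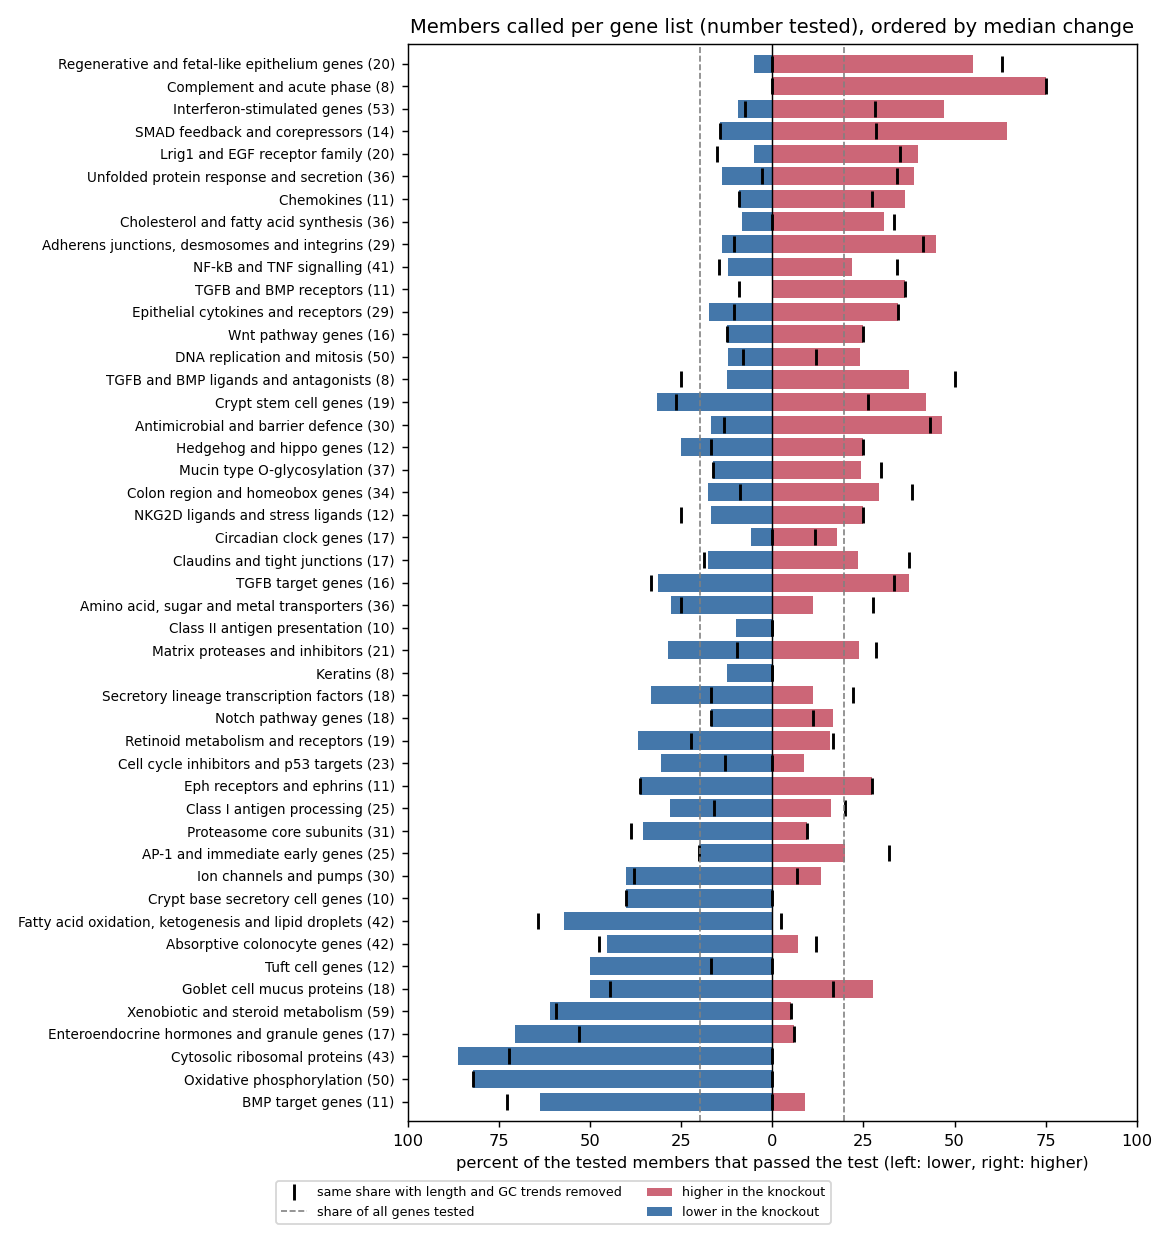
Percent of the tested members of each gene list with at least 8 of them, called lower (blue, left) and higher (red, right) in the knockout by limma, ordered by median change, with black marks for the same shares after length and GC trends were removed and dashed lines at the shares of all genes tested (19.9% lower, 19.8% higher). The dashed lines belong to the fit without trend removal. Regenerative genes have the highest median change (0.77) and complement genes the largest share higher (6 of 8), and oxidative phosphorylation, ribosomal protein and BMP target genes are mostly lower.

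The largest changes were ranked among genes called in every fit that tested them, without overlap and with a mean of at least 20 CPM in the higher group. Beside the genes above, the 15 largest rises held AI747448, at 77.9, 72.3 and 82.5 CPM in the 3 controls and 551, 834 and 766 CPM in the 3 knockouts, a rise of 3.17 (limma adjusted p = 2.33e-06). Every knockout library was far above every control. They also held Vsig1, a junctional adhesion protein of stomach epithelium (6.18 ± 1.22 to 33.0 ± 3.35 CPM), Nrp1, a co-receptor for semaphorins and VEGF (6.77 ± 0.227 to 31.1 ± 2.75 CPM), Slfn5 (6.22 ± 1.73 to 29.6 ± 3.48 CPM), the iron carrier Trf, transferrin (9.11 ± 1.85 to 38.1 ± 7.58 CPM), the metalloreductase Steap4 (9.09 ± 0.888 to 37.5 ± 10.2 CPM), the gasdermin Gsdmc3 (62.3 ± 20.9 to 219 ± 18.5 CPM), which has near-identical neighbours, and Ido1, which degrades tryptophan. Ido1 stood at 25.8, 25.2 and 26.4 CPM in the 3 controls and 100.3, 175 and 46.7 CPM in the 3 knockouts, with a wide range in the knockout.

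Among the 15 largest falls, the carboxylesterase Ces1d stood at 45.3, 28.9 and 29.9 CPM in the 3 controls and 3.18, 2.99 and 6.61 CPM in the 3 knockouts. The selenium binding protein Selenbp1 stood at 532, 568 and 536 CPM in the 3 controls and 95.6, 87.1 and 120.0 CPM in the 3 knockouts. Selenbp1 was tight within each group. Aadac, an esterase, stood at 75.2, 35.9 and 39.8 CPM in the 3 controls and 1.59, 16.0 and 5.55 CPM in the 3 knockouts. Slc37a2, a sugar phosphate transporter, stood at 431, 140.2 and 130.3 CPM in the 3 controls and 25.9, 35.3 and 36.4 CPM in the 3 knockouts. In both, control library 1 was the highest. Cpm, carboxypeptidase M, stood at 17.2, 53.3 and 55.6 CPM in the 3 controls and 5.45, 5.73 and 5.75 CPM in the 3 knockouts, and there control library 1 was the lowest control. St3gal5, which makes the ganglioside GM3 (20.3 ± 8.17 to 2.37 ± 1.31 CPM), the alkaline ceramidase Acer1 (72.2 ± 3.42 to 15.5 ± 8.54 CPM), the transporter Slc16a9 (35.0 ± 4.14 to 7.28 ± 4.63 CPM) and Gm20594 (76.2 ± 9.09 to 18.2 ± 11.7 CPM) were among these falls too. Those of the genes named that have a length and GC value were called the same way with both trends removed.

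**Figure D4:**
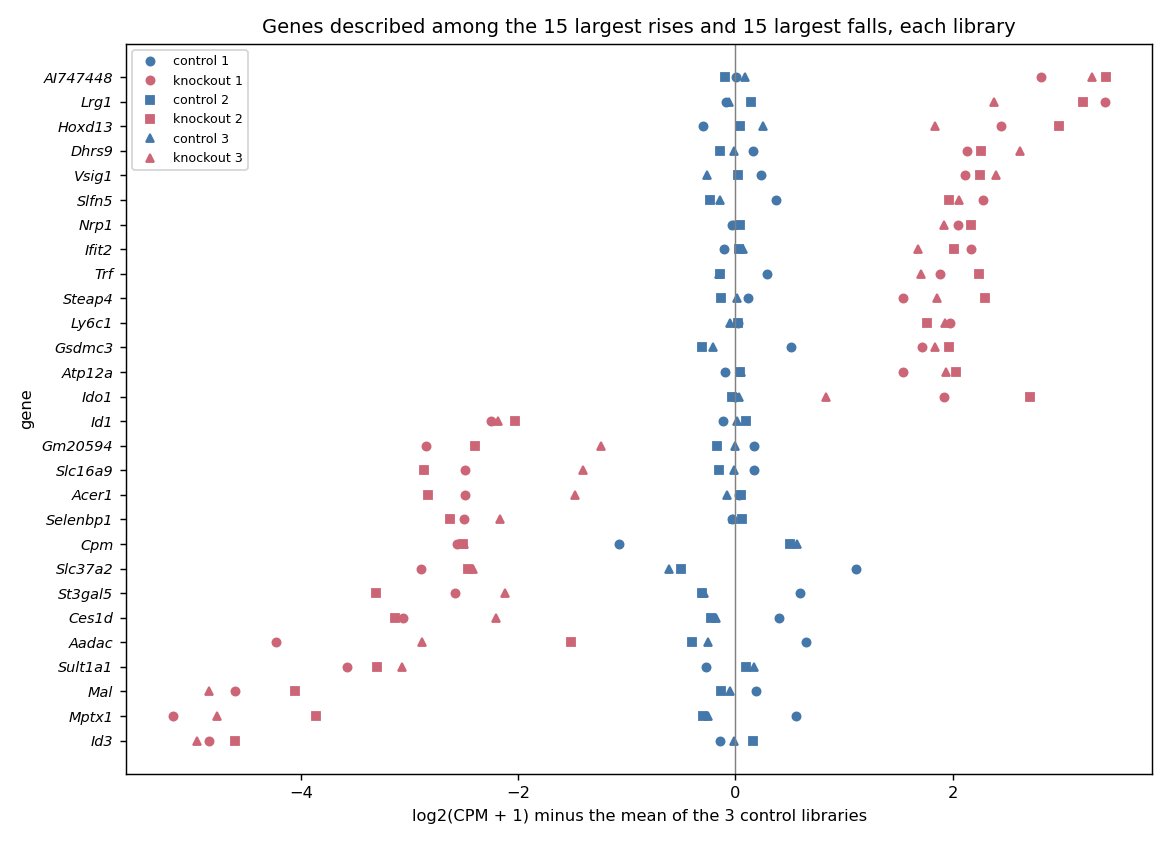
Difference of log2(CPM + 1) in each library from the mean of the 3 control libraries, for the genes described among the 15 largest rises and 15 largest falls (controls blue, knockouts red). Groups do not overlap for any gene by the ranking rule, and Id3 lies lowest and AI747448 highest.

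The changes were set beside those in colonoids given the Smad4 ligands TGFB1 and BMP2, which share no sample with the knockout comparison. A gene was counted as raised or lowered where CPM + 1 changed by at least 1.5-fold the same way in each of the 3 lines; this is a description with no test. Of 10985 genes in both tables the ligands raised 1161 (10.6%) and lowered 1425 (13.0%). Among the 2169 genes lower in the knockout, 177 (8.16%) were raised and 323 (14.9%) lowered, and among the 2207 genes higher in the knockout, 343 (15.5%) were raised and 223 (10.1%) lowered. Larger changes were those of at least 2-fold in the ratio of mean CPM. For genes that fell so, 97 of 347 (28.0%) were lowered by the ligands and 39 (11.2%) raised. For genes that rose so, 61 of 180 (33.9%) were raised and 21 (11.7%) lowered. Loss of Smad4 in tissue and addition of its ligands in colonoids thus went with the same direction more often than with opposite directions among the larger changes.

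**Figure D5:**
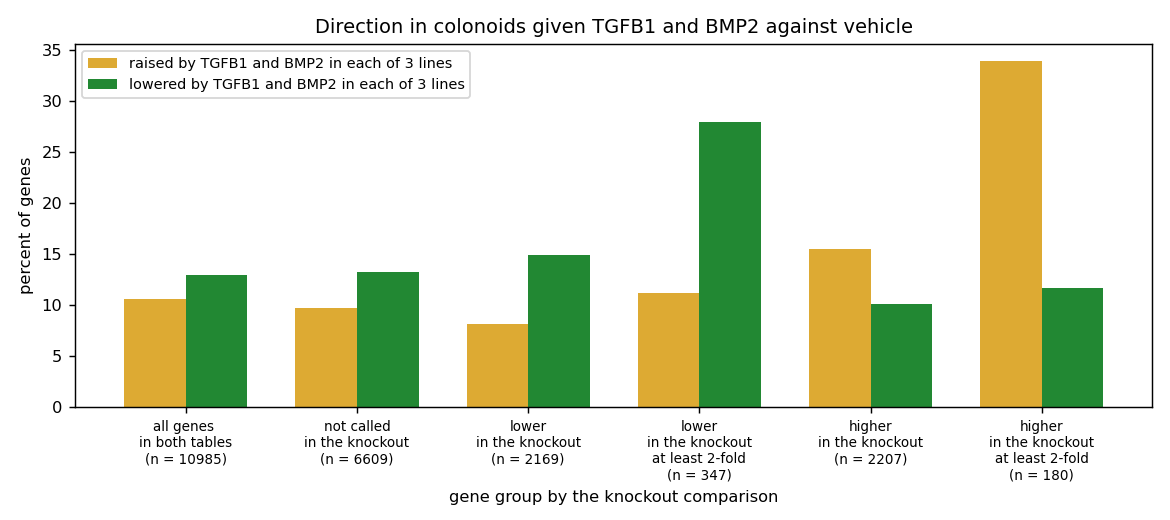
Percent of genes that TGFB1 and BMP2 raised (gold) or lowered (green) by at least 1.5-fold in each of 3 colonoid lines, by their call in the knockout comparison. Genes at least 2-fold lower in the knockout (ratio of mean CPM) were lowered in 28.0%, and genes at least 2-fold higher were raised in 33.9%.

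Id1 and other genes moved opposite ways with the ligands and without Smad4. This did not hold for every BMP target. Of the 7 BMP target genes lower in the knockout, the ligands raised 3, lowered 1 and left 3 in neither class. Among all genes lower in the knockout, 8.16% were raised and 14.9% lowered. Of the 10 members of the whole list in both tables, 4 (40%) were raised and 1 (10%) lowered, beside 10.6% and 13.0% of all genes. Values are given for lines L42, L43 and L46 in this order. Id1 went from 19.1, 19.9 and 29.3 CPM with vehicle to 164, 173 and 59.3 CPM with the ligands. Smad6 went from 1.37, 1.39 and 1.38 CPM with vehicle to 9.77, 13.1 and 2.80 CPM with the ligands. Both fell in the knockout, and line L46 responded the least in both. Cdkn1a went from 172, 182 and 226 CPM with vehicle to 667, 1115 and 457 CPM with the ligands. Sgk1 went from 18.7, 40.9 and 20.9 CPM with vehicle to 102, 200.2 and 52.2 CPM with the ligands. Mal went from 24.4, 29.3 and 25.6 CPM with vehicle to 144, 344 and 127 CPM with the ligands. These 3 were lower in the knockout too. Genes higher in the knockout that the ligands lowered included Bmp3, which went from 15.3, 15.7 and 11 CPM with vehicle to 2.95, 4.41 and 4.20 CPM with the ligands. Lgr5 went from 191, 119 and 152 CPM with vehicle to 6.97, 3.05 and 45.1 CPM with the ligands, with L46 keeping the most. Other genes moved the same way in both settings. Dhrs9 went from 8.998, 7.99 and 12.3 CPM with vehicle to 208, 249 and 109.9 CPM with the ligands. Lama3 went from 98.4, 78.4 and 133 CPM with vehicle to 1587, 2352 and 961 CPM with the ligands. Pmepa1 went from 92.4, 77.6 and 115 CPM with vehicle to 906, 999 and 655 CPM with the ligands. Each of these 3 was higher in the knockout. Selenbp1 went from 477, 485 and 476 CPM with vehicle to 168, 161 and 173 CPM with the ligands, and was lower in the knockout. Some lists moved as a whole with the ligands, whatever their call in the knockout. Of all 29 junction and integrin genes the ligands raised 23 and lowered 0, among them 12 of the 13 higher, 9 of the 12 not called and 2 of the 4 lower in the knockout. Of all 50 replication and mitosis genes they lowered 42 and raised 0, among them 10 of the 12 higher, 28 of the 32 not called and 4 of the 6 lower. The genes and lists named beside the colonoid values were chosen after the values were seen.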

How the data were processed

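Messenger RNA of 3 Smad4 knockout and 3 control colon epithelium libraries was sequenced as single-end reads from a stranded kit, per the labels' protocols. The authors deposited 1 table for this comparison, whose library columns hold a normalized signal in CPM on an effective library size. The submitters' processing notes name edgeR 3.4.2, HTSeq 0.5.4p5, TopHat2 2.1.0, SAMtools 1.3.1, bcl2fastq 2.16 and CASAVA, and the build mm10. Neither the role of each tool nor whether counting used strand is given in the sources used here, so reads of overlapping antisense genes or near-identical paralogs cannot be assigned with certainty. The deposited fold change, p-value and false discovery rate columns were not used. The value of 1 read was 0.0346 to 0.0419 CPM, with 100% of values within 0.05 of a whole read; no recovered counts were tested, and the planned count tests (edgeR, DESeq2, voom) were not run.

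Samples were grouped by title. The test was limma 3.58.1 in R 4.3.3 (two-sided, moderated variance with an intensity trend, no block) on log2(CPM + 1), for genes averaging 1 CPM or more, with Benjamini-Hochberg adjustment over 11607 genes and a threshold of 0.05. The log2 scale with a pseudocount of 1 understates changes of low genes. Code was tested on simulated data. Transcript lengths and GC content came from GENCODE M21 on mm10 (11085 of 11607 symbols matched), and trends were removed per library by loess (span 0.4); these 2 fits, robust variance moderation and a fit with no mean-variance trend were chosen after seeing the data. The colonoid signal in CPM, also deposited by the authors, was used only for directions within lines. Python 3.11.15, pandas 2.3.3, numpy 2.4.6 and matplotlib 3.10.9 were used.

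The members and the 62 gene lists (13 of them cell markers) were chosen with earlier results of these data known. Genes named are Smad4, Lrig1 and Ccl20; the 15 largest rises and falls among genes called in every fit that tested them, without overlap and with at least 20 CPM in the higher group; per list up to 8 members called so, by size of change, and up to 2 members not called, by level; and markers. A few genes that this rule selects are not reported here.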

Additional observations from a re-analysis of the deposited data

How the results depend on the processing

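The number of genes called ranged from 4244 to 4613 under other pseudocounts, filters and scalings, and was 4615 with robust variance moderation and 4479 with no mean-variance trend. With 1 library left out it ranged from 2708 to 4915. Against a minimum change of 1.5-fold (limma's treat) 239 genes passed, 80 higher and 159 lower. With the length trend removed 3781 of 10847 genes were called (3142 of them shared with the 4611), and with the length and GC trends removed 3732 (2688 shared). With the replicate block the count was 4946. In their deviations from the group mean, same-numbered knockout and control libraries correlated at 0.0658, 0.123 and -0.00611, so the numbers were not taken to pair the samples. Differently numbered knockout and control libraries correlated at -0.365 to 0.452. Of 140 named genes that were called, 63 lost the call against the 1.5-fold minimum and 3 (Bmpr2, Coro1a and Id4) with the length and GC trends removed; Bmpr2 was also lost with the length trend alone. Of the named genes not called, 8 were called under at least 1 alternative, and Cycs reversed to a log2 difference of -0.29 with the length and GC trends removed (adjusted p = 0.0377 by limma); the cause was not tested. At a 2-fold minimum in each colonoid line, the ligands raised 3.99% and lowered 5.58% of the 10985 genes compared. Of 2169 genes lower in the knockout they lowered 131 (6.04%), near the share of all genes, and raised 68 (3.14%). Of 2207 genes higher in the knockout they raised 132 (5.98%) and lowered 109 (4.94%). Of 347 genes at least 2-fold lower in the knockout they lowered 42 (12.1%) and raised 18 (5.19%). Of 180 genes at least 2-fold higher they raised 37 (20.6%) and lowered 15 (8.33%). The planned edgeR, DESeq2 and voom fits were not run. Counts of higher or lower members of a list moved by over 1.5 times in 285 of 1728 values, over all lists and alternatives. With 3 libraries a group, and control library 3 and knockout library 1 between the others in GC trend, small list counts carry little weight.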

Other observations

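A pair of nearby keratin genes on chromosome 11 varied widely between libraries of the same group. Krt15, a keratin of stratified epithelium and of rare intestinal progenitors, stood at 180.2, 1.18 and 1.018 CPM in the controls and at 879, 8.32 and 329 CPM in the knockout (limma adjusted p = 0.117). Krt19, a keratin of simple epithelium, stood at 2519, 3607 and 3295 CPM in the controls and at 173, 2672 and 2239 CPM in the knockout (limma adjusted p = 0.139). Knockout library 1 had the highest Krt15 and the lowest Krt19, and control library 1 had the highest Krt15 and the lowest Krt19 of the controls. Both genes were called with the replicate block (adjusted p = 0.00114 for Krt15 and 0.0148 for Krt19), although the numbers were not taken to pair the samples. Whether reads are divided between these paralogs was not tested. The genes were chosen after their values were seen.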
